A study of Mus musculus with 8 samples.

Results

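Gene expression in the brains of mice with cerebral amyloid angiopathy (CAA) was compared with that in wild-type (WT) brains across both treatments of the study. All 8 libraries of the series entered, 4 from CAA mice and 4 from WT mice, with treatment held as a blocking term, and 17182 of the 54532 genes in the deposited count table were expressed highly enough to be tested. The 4 groups were CAA mice under chronic restraint stress, CAA mice given a mock treatment, WT mice under chronic restraint stress and WT mice given a mock treatment, with 2 libraries each. All mice were perfused with PBS before total RNA was extracted from brain tissue. Libraries are named by genotype, treatment and replicate number, so that CAA mock 1 is the first mock-treated CAA library. Values per library are given in the order mock 1, mock 2, stress 1 and stress 2.

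The labels give the CAA mice no strain, allele, promoter, age or sex, so the mouse model behind the label cannot be described further. They also do not say which brain part was used or that each library came from a separate animal. The p-values therefore measure only the spread between these libraries, which may be technical in part. No gene is known from the labels to be altered by design in CAA mice, so there was no targeted gene against which the label could be checked.

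CAA is a disease in which amyloid-beta, a fragment of the amyloid precursor protein App, is deposited in the walls of small arteries and capillaries of the brain. Smooth muscle cells, pericytes, endothelium and perivascular fibroblasts build these walls and their basement membrane. Microglia near amyloid are known in mice to raise genes such as Apoe, Trem2, Cst7 and Itgax, and astrocytes near it raise Gfap.

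The libraries held 17275201 to 18894657 counts, and the mitochondrial genome took 6.10% to 9.99% of them. Neuronal RNA was abundant in every library. The synaptic gene Snap25 lay between 1667 and 2505 CPM (counts per library size after TMM normalisation). A pair of properties split the libraries in ways that the labels do not describe. Xist, the non-coding RNA of the inactive X chromosome in females, had 3340 counts in CAA stress 1 and 4575 in WT mock 1, against 0 to 24 in the other 6 libraries. Markers of the striatum lay lowest in CAA mock 2 and WT mock 1, at a mean log2 level of -1.89 and -2.00 relative to each gene's mean over the libraries. Results were therefore also computed without each of these pairs.

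With treatment as a block, 2 of 17182 genes passed an adjusted p of 0.05, which is 0.0116% of those tested (edgeR quasi-likelihood test with Benjamini-Hochberg adjustment). Wdfy1, which links Toll-like receptors on endosomes to their adaptors, rose in CAA brains, and Ngef, a neuronal exchange factor of ephrin signalling, fell. These were 1 gene in each direction, or 0.00582% of the genes tested. DESeq2 called 40 genes on the same counts, 23 higher and 17 lower, or 0.233% of those tested, and edgeR without the low-count filter called 303 of 29446 (1.03%). The unadjusted p was under 0.05 for 1463 genes (8.51%), of which 760 had a higher level in CAA (4.42%) and 703 a lower one (4.09%). The median log2 fold change of CAA over WT was 0.0014 over all genes tested, the median absolute log2 fold change was 0.17 (log2), and 8625 genes (50.2%) lay above 0. The 4 CAA libraries and the 4 WT libraries did not overlap for 819 genes (4.77%).

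**Figure D1:**
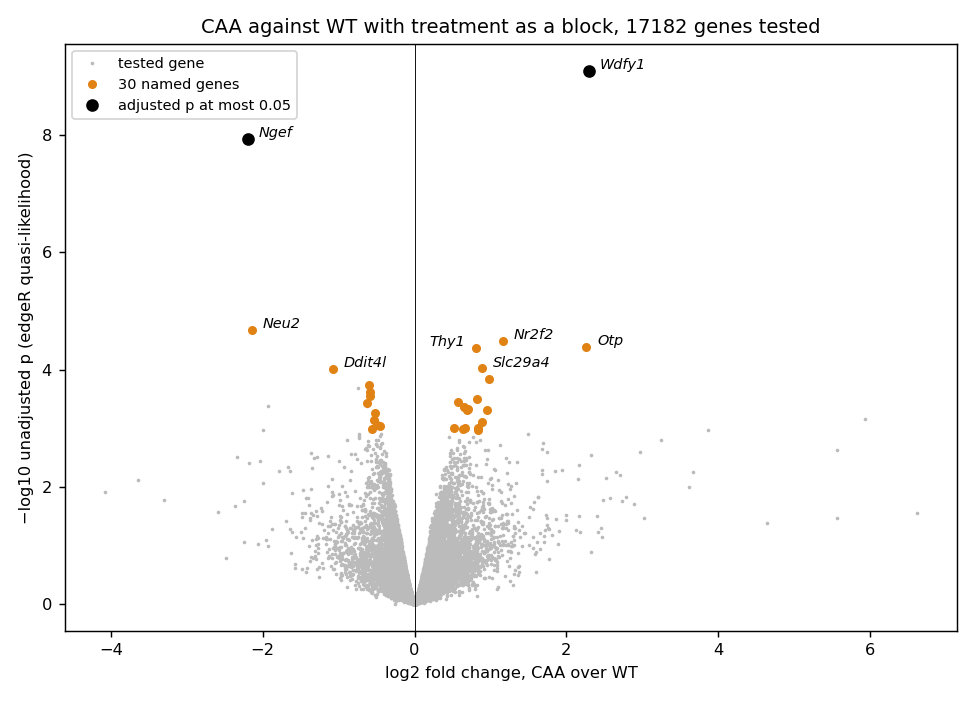
Each point is 1 of the 17182 tested genes, with the log2 fold change of CAA over WT on the horizontal axis and −log10 of the unadjusted edgeR p on the vertical axis. Wdfy1 at 2.30 and Ngef at -2.20 (black) stand above the other 28 named genes (orange), of which those with the 6 smallest p-values are labelled.

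Wdfy1 (ENSMUSG00000073643) encodes a FYVE-domain protein that binds phosphatidylinositol 3-phosphate on early endosomes and brings the adaptor TRIF to Toll-like receptors 3 and 4. It lay at 55.1, 65.7, 54.7 and 47.3 CPM in CAA libraries, against 10.3, 12.3, 12.5 and 9.87 CPM in WT libraries. Every CAA library was far above every WT library, under mock and under stress alike. The means were 55.7 ± 7.59 CPM in CAA and 11.3 ± 1.35 CPM in WT (SD, n = 4 each), a 4.93-fold difference (log2 fold change 2.30 ± 0.14 SE, edgeR adjusted p = 1.37e-05). Per length of transcript, it lay at 7.21 to 10.1 FPKM in CAA and 1.51 to 1.91 FPKM in WT. Wdfy2, its paralog and another endosomal FYVE protein, lay at 2.54 to 2.90 FPKM in CAA and 2.65 to 3.13 FPKM in WT, so that Wdfy1 lay above Wdfy2 in each CAA library and below it in each WT library. For Wdfy2 itself the difference was -0.05 ± 0.12 on the log2 scale (edgeR adjusted p = 0.914).

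Ngef (ENSMUSG00000026259) encodes ephexin-1, a guanine nucleotide exchange factor that acts downstream of EphA receptors in axon guidance and at synapses. It lay at 70.9, 40.4, 67.7 and 70.4 CPM in CAA libraries, against 257, 291, 320 and 271 CPM in WT libraries. The groups were far apart, and CAA mock 2 was below the other CAA libraries. The means were 62.3 ± 14.7 CPM in CAA and 285 ± 27.3 CPM in WT (SD, n = 4 each; log2 fold change -2.20 ± 0.16 SE, edgeR adjusted p = 9.88e-05). CAA brains thus held 0.218 of the WT level of Ngef RNA. Ngef lay at 10.3 to 17.98 FPKM in CAA and 65.2 to 81.0 FPKM in WT.

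Both genes differed under each treatment, and in edgeR they were the 2 genes called within mock and within stress (0.0116% of 17182 in each). The log2 fold change of Wdfy1 was 2.42 ± 0.20 within mock and 2.19 ± 0.20 within stress (SE, n = 2 per group; edgeR adjusted p = 0.0013 and 0.00349), and the interaction of genotype with stress was -0.23 ± 0.27 (edgeR unadjusted p = 0.41). Ngef had -2.30 ± 0.24 within mock and -2.10 ± 0.24 within stress (SE, n = 2 per group; edgeR adjusted p = 0.0098 and 0.0221), with an interaction of 0.20 ± 0.32 (edgeR unadjusted p = 0.543). Leaving out each library in turn gave 2.23 to 2.40 for Wdfy1 and -2.35 to -2.04 for Ngef, and both stayed past the threshold each time in the pooled comparison. Without the pair of libraries high in Xist they had 2.19 and -2.22 (edgeR adjusted p = 0.00127 and 0.0143), and without the pair lowest in striatal markers 2.18 and -2.08 (edgeR adjusted p = 3.95e-05 and 1.09e-05). Within 1 treatment, leaving out a library of that treatment leaves an arm with 1 library, which is then assumed to vary like the other groups. Over all 8 such fits the log2 fold change of Wdfy1 ran from 2.28 to 2.55 within mock and from 2.02 to 2.37 within stress, and that of Ngef from -2.76 to -1.95 and from -2.21 to -1.97. Wdfy1 missed the threshold within stress without WT stress 1 or WT stress 2 (edgeR adjusted p = 0.0622 and 0.192). Ngef missed it without any 1 of the 4 stress libraries, within mock (edgeR adjusted p = 0.0548 to 0.0663) and within stress (0.198 to 0.49). For the interaction, edgeR called 0 of the 17182 genes (0%), with 595 genes (3.46%) at an unadjusted p under 0.05, and DESeq2 called 4.

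**Figure D2:**
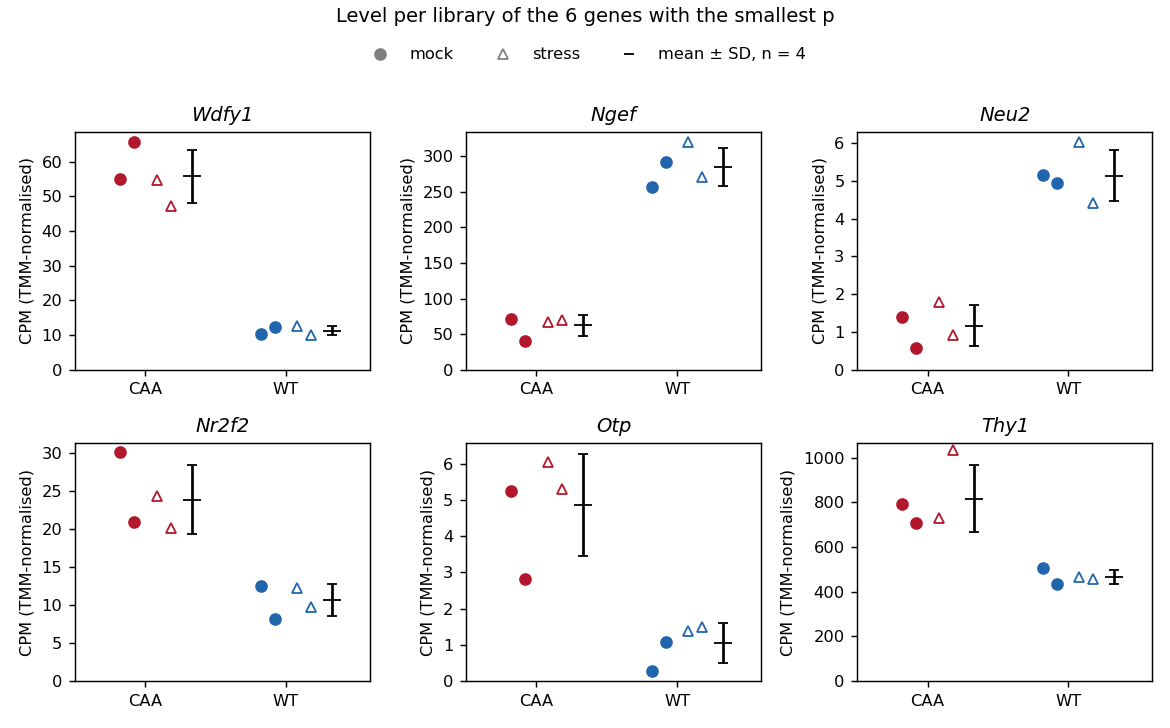
Each panel gives the TMM-normalised CPM of 1 gene in the 4 CAA libraries (red, left) and the 4 WT libraries (blue, right), with circles for mock, triangles for stress and the bar for mean ± SD (n = 4). For each of the 6 genes with the smallest p the libraries of the 2 genotypes do not overlap, with Wdfy1 at 47.3 to 65.7 CPM in CAA against 9.87 to 12.5 CPM in WT.

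The called genes lie on the same chromosome. In the mm10 build Wdfy1 runs from position 79702262 to 79776143 of chromosome 1 and Ngef from 87476834 to 87573870, both on the minus strand, with 7.7 Mb between them. Genes around them were examined within 2 Mb on each side. Of the 14 tested neighbours of Wdfy1, 6 had a log2 fold change above 0 and 8 below, 0 were called by edgeR, 1 had an unadjusted p under 0.05, and all 14 overlapped between the genotypes. Of the 40 tested neighbours of Ngef, 21 lay above 0 and 19 below, 0 were called by edgeR, 3 had an unadjusted p under 0.05, and 5 did not overlap. The share at an unadjusted p under 0.05 was 7.14% around Wdfy1 and 7.5% around Ngef, against 8.51% of all genes, and the share without overlap around Ngef was 12.5%, against 4.77% of all genes. The median absolute log2 fold change was 0.12 around each gene, against 0.17 over all genes tested.

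**Figure D3:**
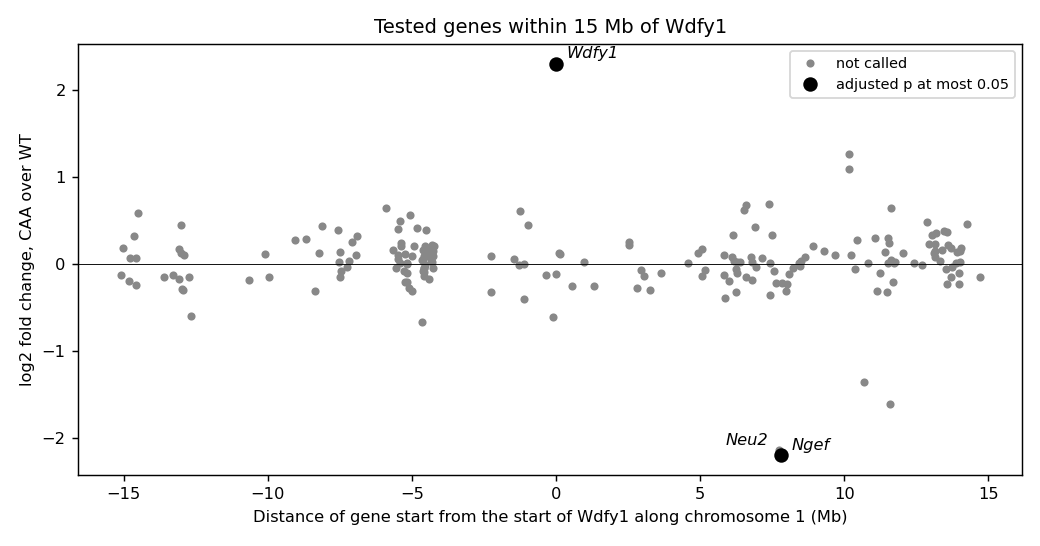
The log2 fold change of CAA over WT is plotted for tested genes by the distance of their start from that of Wdfy1 along chromosome 1, in Mb. Wdfy1 at 2.30 and Ngef at -2.20, with starts 7.8 Mb apart, are the called genes (black), and Neu2 at -2.14 lies beside Ngef.

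Among the neighbours of Ngef, Neu2 (ENSMUSG00000079434), a cytosolic sialidase gene on the opposite strand, was the one with the smallest p. It lay at 1.40, 0.563, 1.80 and 0.911 CPM in CAA libraries, against 5.16, 4.94, 6.02 and 4.41 CPM in WT libraries. All CAA libraries were below all WT libraries, at 10 to 33 counts in CAA and 80 to 110 counts in WT. Its log2 fold change of -2.14 ± 0.32 (SE) missed the threshold in edgeR (adjusted p = 0.119) and passed it in DESeq2 (adjusted p = 2.08e-06). The genes share 63982 bases, but their exons share only 123, which is 3.15% of the exonic bases of Ngef and 4.75% of those of Neu2 (GENCODE vM21). The sources used here do not say whether strand was used in counting, so reads from the shared bases, and intronic reads of Ngef that fall in exons of Neu2, cannot be told apart by gene.

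The other non-overlapping neighbours of Ngef were lower in CAA in 3 cases and higher in 1. Atg16l1, which is needed to form autophagosomes, averaged 40.5 ± 5.29 CPM in CAA and 50.1 ± 2.46 CPM in WT (SD, n = 4 each; log2 fold change -0.31 ± 0.11, edgeR adjusted p = 0.55). Cab39, a scaffold of the kinase LKB1, and Sag, the rod arrestin, had log2 fold changes of -0.20 and -0.23, and the clone-named transcript C130036L24Rik had 0.68 (edgeR adjusted p = 0.598, 0.822 and 0.562). Mrpl44, a mitochondrial ribosomal protein gene that shares 126 exonic bases with Wdfy1, had -0.11 ± 0.14 (edgeR adjusted p = 0.835).

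Other genes of Toll-like receptor signalling lay on both sides of 0. Of its 27 tested genes 10 lay above 0 and 17 below, with a median log2 fold change of -0.01, and Wdfy1, which is itself on the list, was the one called. Tlr3, the endosomal receptor for double-stranded RNA, had -0.14 ± 0.19, and Tlr4, the receptor for lipopolysaccharide, had -0.20 ± 0.43 (SE). Ticam1, which encodes TRIF, had 0.17 ± 0.18, and Irf3, a transcription factor downstream of it, had -0.12 ± 0.15 (SE). Beside Wdfy1, 2 of the 27 genes did not overlap, both above WT, where 4.77% of all genes tested did not overlap in either direction. Rela, a subunit of NF-kappa-B, averaged 23.9 CPM in CAA and 19.3 CPM in WT (0.31 ± 0.13), and Irak4, a kinase of the MyD88 complex, averaged 2.02 CPM in CAA and 1.30 CPM in WT (0.68 ± 0.31; edgeR adjusted p = 0.562 and 0.582). Of 18 tested genes of the type I interferon response, which TRIF signalling can switch on, 8 lay above 0 and 10 below, with a median of -0.05 and 0 called.

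Eph receptors, ephrins and their exchange factors also lay on both sides of 0. Of 30 tested genes 17 lay above 0 and 13 below, with a median log2 fold change of 0.04, and Ngef, which is on the list, was called. Epha4, a receptor that signals through ephexin-1, lay at 101, 161, 127 and 123 CPM in CAA libraries, against 218, 135, 148 and 139 CPM in WT libraries. The ranges overlapped, and its log2 fold change was -0.32 ± 0.17 (edgeR adjusted p = 0.624). Efnb3, a transmembrane ephrin ligand, averaged 95.2 CPM in CAA and 69.0 CPM in WT, with CAA stress 2 at 79.8 CPM just under WT stress 2 at 80.3 CPM (0.46 ± 0.12, edgeR adjusted p = 0.487). Other exchange factors had log2 fold changes of 0.23 (Vav2), 0.30 (Vav3), 0.03 (Tiam1) and -0.31 (Kalrn), each with an edgeR adjusted p of 0.629 or more.

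Behind the called genes came 28 genes ranked by p, each short of the threshold in edgeR (adjusted p = 0.119 to 0.487). They comprised 17 with a higher and 11 with a lower level in CAA, the genotypes did not overlap for any of them, and their log2 fold changes had the same sign within mock and within stress. DESeq2 called 24 of the 28. The strongest interaction among them was that of Jcad (edgeR unadjusted p = 0.0299, adjusted p = 0.995). Since small p-values chose these genes, their separation is a description. Of the 30 named genes 5 were on chromosome 1 (16.7%), against 6.18% of the genes tested. They were Wdfy1, Ngef, Neu2, Kcnt2 and Cop1. Neu2 overlaps Ngef, while Kcnt2 and Cop1 lie far from the called genes, with starts at positions 140246158 and 159232320.

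Thy1, a glycoprotein of the neuronal surface whose regulatory sequences are often used to express transgenes in mouse neurons, lay at 791, 709, 729 and 1034 CPM in CAA libraries, against 505, 434, 466 and 457 CPM in WT libraries. CAA stress 2 was the highest library and all CAA libraries were above all WT libraries. The log2 fold change was 0.80 ± 0.13 (SE; edgeR adjusted p = 0.122, DESeq2 adjusted p = 1.97e-05). Gene counts cannot separate reads of an endogenous gene from those of a transgene that carries part of it, which applies to Thy1, App and Prnp.

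Among the 28 were 6 transcription factors. Nr2f2 (COUP-TFII), a nuclear receptor of vessels and of some interneurons, lay at 30.1, 20.9, 24.3 and 20.04 CPM in CAA libraries, against 12.5, 8.08, 12.2 and 9.76 CPM in WT libraries. The lowest CAA library was above the highest WT library (1.16 ± 0.18, edgeR adjusted p = 0.122). Otp, a homeodomain factor of hypothalamic neuroendocrine neurons, lay at 5.26, 2.82, 6.05 and 5.30 CPM in CAA libraries, against 0.269, 1.07, 1.37 and 1.49 CPM in WT libraries. The gap between genotypes was narrowest at CAA mock 2, and the log2 fold change was 2.26 ± 0.36 (edgeR adjusted p = 0.122, and 0.0452 without the pair lowest in striatal markers). Of 14 tested markers of the hypothalamus 13 lay above 0, Otp among them. Their mean log2 level overlapped, at -1.34 to 1.6 in CAA libraries and -2.47 to 0.23 in WT libraries. In CAA mock 2 this level was -1.34, below WT mock 2, WT stress 1 and WT stress 2, while Otp was above every WT library. The 14 include Hcrt and Pmch, which passed the low-count filter through CAA mock 1 and CAA stress 1 alone. The part of tissue composition in the Otp difference was not tested. Foxp1, a forkhead factor of striatal and cortical projection neurons, had -0.60 ± 0.11, and Sp4, a neuronal zinc-finger factor, had -0.56 ± 0.13 (edgeR adjusted p = 0.315 and 0.487). Cebpd, an inflammation-responsive factor, and Jun, a subunit of AP-1, had 0.84 ± 0.20 and 0.65 ± 0.14 (edgeR adjusted p = 0.487 and 0.385). Gadd45g, a nuclear protein induced by cell stress, had 0.89 ± 0.20 (edgeR adjusted p = 0.487).

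A further 9 of the 28 genes are set together here by their known roles in neurons, a grouping made after their values were seen and with no test behind it. Grin2d, an NMDA receptor subunit, averaged 22.4 ± 2.39 CPM in CAA and 13.8 ± 2.05 CPM in WT (SD, n = 4 each). Nos1, the neuronal nitric oxide synthase, averaged 63.0 ± 7.57 CPM in CAA and 43.9 ± 3.31 CPM in WT (SD, n = 4 each). Nxph4, a neurexophilin that binds neurexins, and Slc29a4, a monoamine transporter of the plasma membrane, had log2 fold changes of 0.95 ± 0.20 and 0.89 ± 0.16. These 4 genes lay above WT. Below WT lay the calcium channel subunit Cacnb4 (-0.52 ± 0.11), the sodium-activated potassium channel Kcnt2 (-0.63 ± 0.13), the auxiliary kainate receptor subunit Neto2 (-0.46 ± 0.11), the kinase Prkca (-0.59 ± 0.12) and the prohormone convertase Pcsk1 (-0.59 ± 0.12). Cacnb4 averaged 166 ± 11.8 CPM in CAA and 238 ± 24.0 CPM in WT (SD, n = 4 each), and Prkca averaged 164 ± 29.0 CPM in CAA and 247 ± 34.0 CPM in WT. For these 9 genes the edgeR adjusted p was 0.206 to 0.487.

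Other named genes act in metabolism, matrix and turnover. Ddit4l, an inhibitor of mTOR signalling, lay at 9.93, 9.41, 9.16 and 9.54 CPM in CAA libraries, against 24.7, 19.3, 23.8 and 12.8 CPM in WT libraries. CAA libraries were close together and WT stress 2 was nearest to them (-1.08 ± 0.19, edgeR adjusted p = 0.206, and 0.0287 without WT stress 2). Adamts2, a procollagen-processing protease, averaged 12.5 ± 1.86 CPM in CAA and 6.40 ± 1.53 CPM in WT (SD, n = 4 each; 0.98 ± 0.18, edgeR adjusted p = 0.277). The mitochondrial genes Ucp2, an inner-membrane carrier, and Glrx5, which acts in iron-sulphur cluster assembly, had 0.67 ± 0.16 and 0.58 ± 0.12. Tppp3, a tubulin-binding protein, Arl10, a small GTPase, and Krt1, a keratin, had 0.82, 0.64 and 0.83, and the ribosomal pseudogene Rps4l, whose reads may be shared with its parent gene, had 0.71. Cop1, a ubiquitin ligase, and Jcad, a protein of endothelial junctions, had -0.49 ± 0.11 and -0.54 ± 0.12 (edgeR adjusted p = 0.487 each).

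Genes that produce amyloid-beta had log2 fold changes near 0. App lay at 1072, 1043, 1222 and 1337 CPM in CAA libraries, against 1257, 1053, 1166 and 1133 CPM in WT libraries. The ranges overlapped widely (log2 fold change 0.01 ± 0.11, edgeR adjusted p = 0.983), and its sign changed without CAA stress 2, WT mock 2, WT stress 1 or WT stress 2. Of 15 genes of amyloid precursor processing, 8 lay above 0 and 7 below, with a median of 0.01, and Bace1, the beta-secretase, had -0.06 ± 0.12. Of 15 genes of amyloid-beta degradation and clearance, 11 lay above 0, with a median of 0.15 (0.03 without WT stress 1) and 0 called. Mme, the protease neprilysin, had -0.55 ± 0.33, and Ide, the insulin-degrading enzyme, had 0.13 ± 0.29 (SE).

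Apoe, the main lipid carrier of the brain, lay at 2264, 1512, 2590 and 1655 CPM in CAA libraries, against 1330, 1436, 1090 and 1247 CPM in WT libraries. All CAA libraries were above all WT libraries, by a small margin for CAA mock 2 over WT mock 2 (0.66 ± 0.17, edgeR adjusted p = 0.487, DESeq2 adjusted p = 0.0634). Gfap, which forms filaments in astrocytes, stood at 390, 676, 317 and 251 CPM in CAA libraries, against 323, 197, 162 and 189 CPM in WT libraries. Its ranges overlapped through WT mock 1, and CAA mock 2 was the highest library (0.86 ± 0.20, edgeR adjusted p = 0.487, DESeq2 adjusted p = 0.0102). Prnp, the prion protein gene, had 0.06 ± 0.10.

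Gene lists for cell types and pathways are described by counts and medians, since 37 of the 39 lists held no gene called by edgeR. The exceptions were the Toll-like receptor and Eph lists. Of 589 distinct listed genes tested, 351 (59.6%) lay above 0, against 50.2% of all genes. Of these 589, 25 (4.24%) did not overlap between genotypes, against 4.77% of all genes, and 75 (12.7%) had an unadjusted edgeR p under 0.05, against 8.51%. DESeq2 called 8 of the 589 (1.36%), against 0.233% of all genes. The lists were chosen with earlier results of these data known and hold genes of small p such as Wdfy1, Ngef, Otp, Nr2f2 and Jun. Their shares above those of all genes are therefore no test. In the lists below, called means called by edgeR. In bulk tissue a cell type that is fewer in number and a cell type with less of an RNA per cell cannot be told apart.

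**Figure D4:**
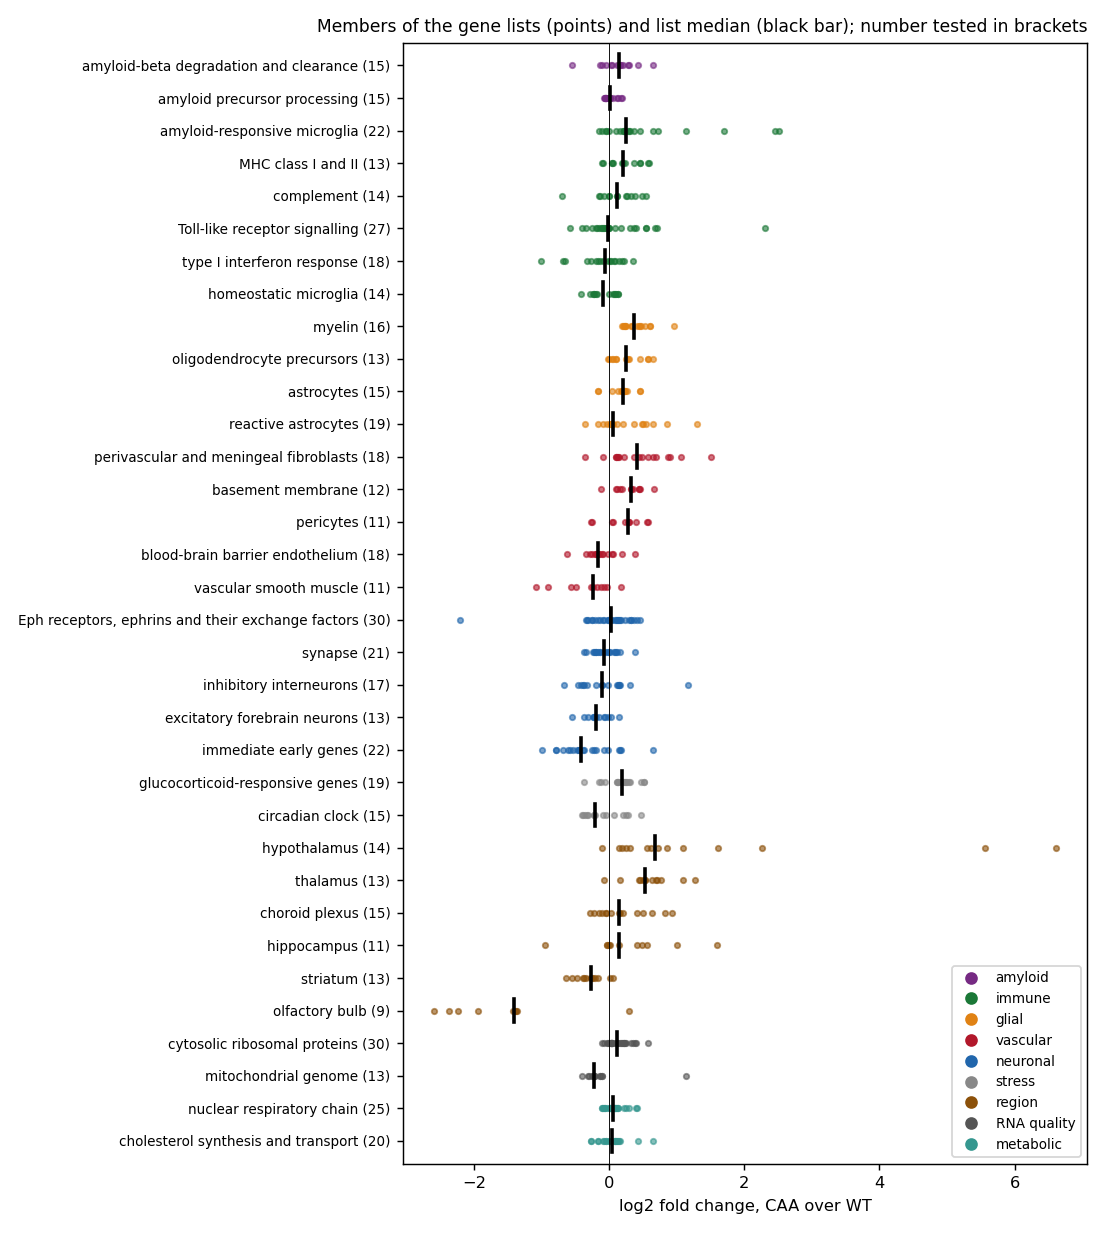
Each point is the log2 fold change of CAA over WT for 1 tested member of a gene list, coloured by the role of the list, and the black bar is the list's median, with the number tested in brackets. Lists with under 80% of their genes tested (neutrophil, border macrophage, brainstem, cerebellum and red cell genes) are not drawn. Medians of the lists drawn run from -1.41 for olfactory bulb markers to 0.68 for hypothalamic markers, and the outlying points of the Toll-like receptor and Eph lists are Wdfy1 at 2.30 and Ngef at -2.20. The hypothalamic list includes Hcrt and Pmch, which passed the low-count filter through CAA libraries alone.

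Microglial genes known to respond to amyloid lay mostly above WT, with 17 of 22 tested above 0, a median log2 fold change of 0.26 and 0 called. Their mean log2 level was -0.04 to 0.59 in CAA libraries and -0.34 to -0.09 in WT libraries. The gap was narrow, with CAA stress 1 at -0.04 and WT stress 1 at -0.09. The count, median and mean include Itgax and Cst7, which reached the minimum count in CAA libraries alone. The separation on this mean is therefore no test. CAA mock 2 was the highest. The members with large ratios had few reads. Itgax, an integrin of activated microglia, had 7, 25, 5 and 12 counts in CAA libraries, against 1, 1, 5 and 1 counts in WT libraries, and Cst7, a cysteine protease inhibitor, had 20, 79, 0 and 29 counts in CAA libraries, against 1, 5, 8 and 6 counts in WT libraries. CAA stress 1 was within or below the WT range for both. Among abundant members, Ctsd, a lysosomal protease, lay at 323, 327, 309 and 278 CPM in CAA libraries, against 241, 259, 257 and 256 CPM in WT libraries. These did not overlap (0.29 ± 0.10, edgeR adjusted p = 0.537). Trem2, the lipid receptor of this response, had 0.23 ± 0.14, and its signalling partner Tyrobp had 0.46 ± 0.19 (edgeR adjusted p = 0.656 and 0.562). Genes of homeostatic microglia had a median of -0.09 (0.02 without CAA stress 2), with 6 of 14 above 0, and among them P2ry12 had -0.28 ± 0.21 and Tmem119 had 0.09 ± 0.20.

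Neutrophils, which release chromatin webs called extracellular traps, left few reads. Of 17 listed genes 6 had enough reads to be tested, and 0 of them were called by edgeR. Reads in a few libraries decided which genes passed the filter on low counts, so the list is given no median. S100a9, a calcium-binding protein of neutrophil granules, lay at 0.0584, 2.03, 1.69 and 0.482 CPM in CAA libraries, against 0.269, 0.505, 0.547 and 0.606 CPM in WT libraries. Its partner S100a8 lay at 0.117, 1.58, 1.74 and 0.429 CPM in CAA libraries, against 0.538, 0.112, 0.712 and 0.276 CPM in WT libraries. For both genes CAA mock 2 and CAA stress 1 were above every WT library and CAA mock 1 and CAA stress 2 were not (1.15 ± 0.74 and 1.24 ± 0.75, edgeR adjusted p = 0.669 and 0.653). Mpo, the myeloperoxidase of neutrophil granules, had at most 6 counts in a library, and Padi4, the enzyme that citrullinates histones in these traps, had at most 2, so neither could be tested. Complement genes had a median of 0.12 (9 of 14 above 0), which was -0.06 without CAA mock 2. Genes of MHC class I and II had 0.20 (11 of 13 above 0), which was 0.08 without CAA mock 2.

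Genes of the oligodendrocyte lineage lay above WT. All 16 myelin genes had a log2 fold change above 0, with a median of 0.38, and so did 12 of 13 genes of oligodendrocyte precursors, with a median of 0.26 (0.12 without CAA stress 1), with 0 called in each list. Olig1, a transcription factor of the lineage, lay at 318, 316, 331 and 194 CPM in CAA libraries, against 218, 205, 171 and 181 CPM in WT libraries. CAA stress 2 was within the WT range and the other CAA libraries were above it (0.58 ± 0.14, edgeR adjusted p = 0.487). The myelin list ranged from -0.64 in CAA stress 2 to 0.79 in CAA mock 2 (mean log2 level), against -0.44 to 0.19 in WT libraries, and the median log2 fold change of its genes was 0.13 without CAA stress 1 and 0.60 without CAA stress 2. Astrocyte genes had a median of 0.21 (13 of 15 above 0), which was 0.09 without CAA stress 1, 0.35 without CAA stress 2 and 0.01 without the pair high in Xist. Reactive astrocyte genes had one of 0.05 (15 of 19 above 0), which became 0.20 if CAA stress 1 was left out and 0.01 if CAA mock 2 was.

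The cell types of the vessel wall differed in direction. Markers of fibroblasts (16 of 18 above 0, median 0.41), basement membrane (11 of 12, median 0.33) and pericytes (9 of 11, median 0.28) lay above WT. Those of smooth muscle (1 of 11 above 0, median -0.24) and of blood-brain barrier endothelium (4 of 18, median -0.17) lay below. None of these genes was called by edgeR. The mean log2 level overlapped between the genotypes for each of these lists. That of basement membrane genes was -0.322 to 0.613 in CAA libraries and -0.283 to -0.002 in WT libraries. For endothelial genes it was -0.361 to 0.152 in CAA libraries and -0.049 to 0.228 in WT libraries. The basement membrane median was 0.18 without CAA stress 2, the pericyte median 0.14 without CAA mock 2, and the endothelial median -0.07 without CAA mock 1 or -0.26 without CAA mock 2. Acta2, the smooth muscle actin, lay at 9.17, 18.3, 13.4 and 11.3 CPM in CAA libraries, against 15.2, 15.7, 19.98 and 22.8 CPM in WT libraries, with overlap through CAA mock 2 (-0.48 ± 0.21, edgeR adjusted p = 0.58). Ocln, the tight junction protein occludin, lay at 3.68, 5.69, 5.18 and 5.36 CPM in CAA libraries, against 8.77, 6.62, 6.57 and 8.65 CPM in WT libraries. Of the 18 endothelial genes of the list it was the 1 without overlap (-0.62 ± 0.20, edgeR adjusted p = 0.512). Over all genes tested the share without overlap was 4.77%. Notch3, the receptor of mural cells, had 0.57 ± 0.19 (edgeR adjusted p = 0.521). Col1a1, a fibrillar collagen of fibroblasts, lay at 4.79, 9.24, 7.31 and 28.1 CPM in CAA libraries, against 4.95, 4.27, 4.38 and 2.37 CPM in WT libraries. CAA stress 2 was the highest library for it and for the fibroblast list, whose mean log2 level was -0.56 to 0.80 in CAA libraries and -0.27 to -0.02 in WT libraries, and without CAA stress 2 the fibroblast median was 0.15.

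Immediate early genes, which respond to neuronal firing, lay below WT in 18 of 22 cases, with a median log2 fold change of -0.41 and 0 called by edgeR, while DESeq2 called Jun. Their mean log2 level was -0.54 to 0.04 in CAA libraries and 0.05 to 0.28 in WT libraries. Egr1, a zinc-finger factor of this response, lay at 113, 70.2, 89.2 and 110 CPM in CAA libraries, against 170, 130, 138 and 145 CPM in WT libraries. All CAA libraries were below all WT libraries (-0.61 ± 0.16, edgeR adjusted p = 0.487). Homer1, a postsynaptic scaffold with an activity-induced form, lay at 241, 121, 161 and 168 CPM in CAA libraries, against 246, 342, 388 and 209.5 CPM in WT libraries, which overlapped (-0.78 ± 0.25, edgeR adjusted p = 0.532). Jun had the opposite sign and lay at 53.7, 51.7, 52.9 and 66.9 CPM in CAA libraries, against 42.6, 35.3, 35.6 and 30.1 CPM in WT libraries, without overlap (edgeR adjusted p = 0.385, DESeq2 adjusted p = 0.0158). The list's median was -0.18 without the pair high in Xist and -0.25 without the pair lowest in striatal markers, and both pairs include WT mock 1.

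Synaptic genes had a median of -0.08 (7 of 21 above 0; 0.01 without CAA mock 2), and markers of excitatory forebrain neurons one of -0.19 (2 of 13 above 0; -0.05 without the pair high in Xist). Snap25, a vesicle fusion protein, lay at 1697, 1986, 1667 and 1949 CPM in CAA libraries, against 2505, 2158, 2487 and 2259 CPM in WT libraries. Each CAA library was below each WT library (-0.37 ± 0.11, edgeR adjusted p = 0.492). Markers of inhibitory interneurons had a median of -0.10 (7 of 17 above 0). The list's median ran from -0.21 without WT mock 1 to 0.04 without WT mock 2. The member with the smallest p was Nr2f2, described above, which lay above WT without overlap (1.16 ± 0.18). It was the 1 of the 17 without overlap, against 4.77% of all genes tested. Gad1, which makes GABA, had -0.37 ± 0.14 and the neuropeptide gene Vip had -0.41 ± 0.13, both with overlap (edgeR adjusted p = 0.562 and 0.512).

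Glucocorticoid-responsive genes, which adrenal stress hormones switch on, lay above WT with treatment held as a block in 15 of 19 cases, with a median of 0.19 and 0 called. Ddit4, an inhibitor of mTOR signalling, averaged 80.0 CPM in CAA and 55.5 CPM in WT, and Klf15, a Krüppel-like factor, averaged 45.8 CPM in CAA and 32.1 CPM in WT. For both genes the genotypes did not overlap (0.52 ± 0.14 and 0.51 ± 0.14, edgeR adjusted p = 0.487 each). They were the 2 of the 19 listed genes without overlap, against 4.77% of all genes tested. Fkbp5, a co-chaperone of the glucocorticoid receptor, had 0.23 ± 0.14 (edgeR adjusted p = 0.639). The list's median became 0.32 if CAA stress 2 was left out, 0.08 if CAA mock 2 was, and 0.01 without the pair high in Xist. Clock, an activator of the circadian oscillator, lay at 76.9, 103, 74.3 and 94.3 CPM in CAA libraries, against 107, 109, 123 and 106 CPM in WT libraries, without overlap (-0.35 ± 0.13, edgeR adjusted p = 0.55). The circadian list had a median of -0.20 (5 of 15 above 0), which was -0.04 without WT mock 1 and -0.06 without the pair high in Xist. The time of collection is not given in the sources used here.

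Brain region markers varied widely between libraries of 1 genotype, and some moved with genotype. Olfactory bulb markers lay at a mean log2 level of -1.48, -1.54, -0.99 and 1.20 in CAA libraries, against -1.71, 1.51, 1.32 and 1.70 in WT libraries. They were low in 3 CAA libraries and 1 WT library (1 of 9 tested genes above 0, median log2 fold change -1.41, which was -2.66 without CAA stress 2 and -0.86 without WT mock 2). In CAA stress 2, which was high in bulb markers, Wdfy1 lay at 47.3 CPM, the lowest CAA value, against 54.7 to 65.7 CPM in the other CAA libraries. Ngef lay at 70.4 CPM there, against 40.4 to 70.9 CPM in the other CAA libraries. In WT mock 1, which was low in bulb markers, Wdfy1 and Ngef lay at 10.3 and 257 CPM, against 9.87 to 12.5 CPM and 271 to 320 CPM in the other WT libraries. The part of bulb content in the differences of Wdfy1 and Ngef was not tested.

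The hypothalamic neuropeptide genes Hcrt and Pmch had the largest log2 fold changes of all list members and were high in CAA mock 1 and CAA stress 1 alone. Hcrt, the orexin precursor, lay at 13.2, 0.113, 10.9 and 0.161 CPM in CAA libraries, against 0.0538, 0, 0 and 0.165 CPM in WT libraries, and Pmch, the precursor of melanin-concentrating hormone, lay at 17.9, 0.394, 28.6 and 0.214 CPM in CAA libraries, against 0.108, 0.168, 0.493 and 0.220 CPM in WT libraries. Both genes passed the low-count filter through CAA mock 1 and CAA stress 1 alone, and both are part of the list's counts, mean and median. The hypothalamic median was 0.68, and it was 0.33 without CAA mock 1, 1.28 without WT mock 2 and 0.26 without the pair high in Xist. Thalamic markers had a median of 0.54 (12 of 13 above 0), which was 0.17 without CAA stress 1 and 0.89 without WT stress 2, with 0 called by edgeR. Of 14 brainstem markers 7 were tested. Those stood at -0.415, 1.56, 1.17 and -0.313 in CAA libraries, against -0.87 to -0.22 in WT libraries (mean log2 level). CAA mock 1 and CAA stress 2 were thus within the WT range. Striatal markers had a median of -0.27 (2 of 13 above 0), and leaving out 1 library moved it from -0.98 without CAA mock 1 to 0.38 without WT mock 2. Hippocampal markers had 0.15 (8 of 11 above 0; -0.03 without WT mock 2 and 0.51 without WT mock 1). Those of the choroid plexus had 0.15 (9 of 15 above 0; -0.29 without CAA stress 1 and 1.13 without WT stress 2). The direction of these 3 lists thus rests on single libraries. The part of tissue composition in the list differences above was not tested.

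**Figure D5:**
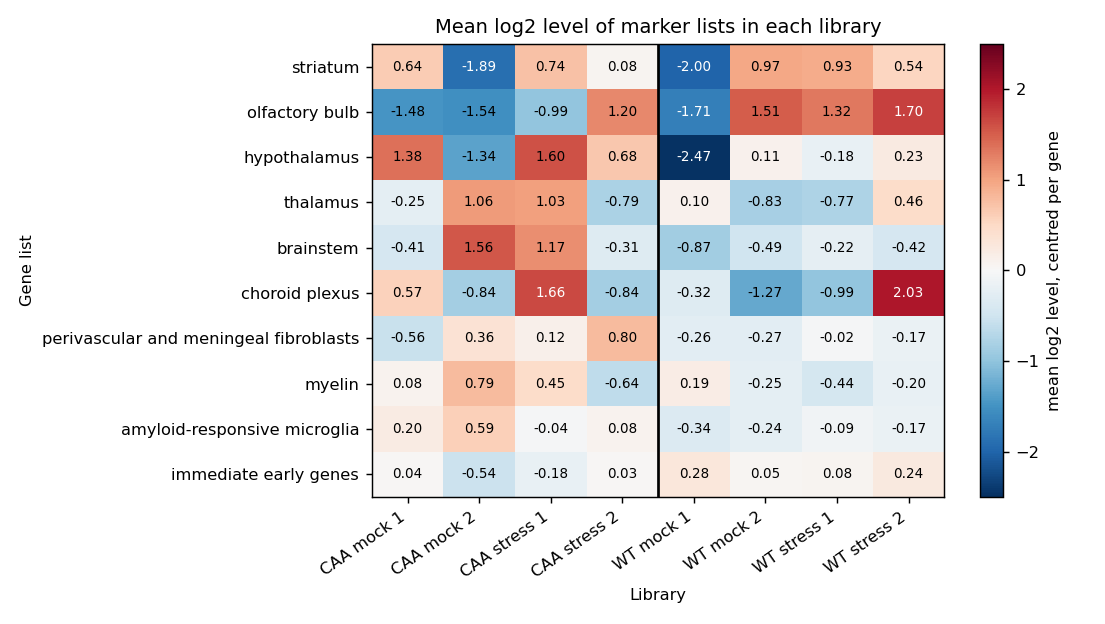
Each cell gives the mean log2 level of the tested genes of 1 list in 1 library, with each gene centred on its mean over the 8 libraries, for the 4 CAA libraries (left of the line) and the 4 WT libraries (right). Striatal markers are lowest in CAA mock 2 and WT mock 1 at -1.89 and -2.00. Amyloid-responsive microglial genes are at -0.04 to 0.59 in CAA libraries and -0.34 to -0.09 in WT libraries. The microglial list includes Itgax and Cst7, which reached the minimum count in CAA libraries alone.

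Among signs of RNA content, genes of the mitochondrial genome had a median log2 fold change of -0.22 (1 of 13 above 0). With 1 library left out it ran from -0.314 without CAA mock 2 to -0.105 without CAA stress 2. It was -0.405 without the pair high in Xist and -0.355 without the pair lowest in striatal markers. CAA stress 2 was lowest at 6.10% of counts, and the other libraries had 7.89% to 9.99%. Cytosolic ribosomal protein genes had a median of 0.11 (26 of 30 above 0), nuclear genes of the respiratory chain one of 0.07 (18 of 25) and genes of cholesterol synthesis and transport one of 0.04 (12 of 20), with 0 called in each list. Without the pair high in Xist the ribosomal median was -0.04 and the respiratory chain median -0.05. Red cell genes, of which 4 of 7 were tested, lay highest in WT stress 1, where Hba-a1, an alpha globin gene, had 45.6 CPM, against 0.964 to 6.49 CPM in CAA libraries and 2.58 to 5.18 CPM in the other WT libraries.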

How the data were processed

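The authors deposited raw read counts per gene. The submitters' processing notes name the mm10 build, HISAT2 (version 2.0.5) and featureCounts (version 1.5.0-p3), while settings, annotation release and strand use are not given in the sources used. FPKM values per gene and library, deposited by the authors in a second table, were used for levels between genes and for an alternative test. The libraries held 17275201 to 18894657 counts. Chi-square tests of counts between any 2 libraries gave 8.72 to 74.2 per degree of freedom, far above sampling noise, so no 2 were the same library sequenced again. Each library was treated as 1 sample, although these tests cannot show that the libraries came from separate animals.

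The test was that of edgeR 4.0.16 (R 4.3.3) after filterByExpr over the 4 groups, with a minimum count of 10 and a minimum total of 15 leaving 17182 genes, TMM scaling, and a robust quasi-likelihood fit with terms for treatment and genotype (residual degrees of freedom 5, prior 7.32). Effects within mock and stress and the interaction came from a fit of the 4 group means. The p-values are two-sided and were adjusted by Benjamini-Hochberg over all genes tested, and an adjusted p of at most 0.05 is a call. The fit was tested on 1 set of simulated data with 200 genes changed. It called 68.7% of 2-fold, 86.6% of 4-fold and 100% of 8-fold changes, and 7.61% of its calls were false. Named genes are those called, those with the next smallest p to 30 in all (leaving aside clone-style symbols and means below 1 CPM, 4 genes), the 3 members of each list with the smallest p, a fixed set of always-reported genes, and tested genes within 2 Mb of a called gene; further list members in the text were picked with their values in view. The comparison, the 40 gene lists (634 symbols, 594 tested, 1 list of sex-linked genes) and the naming rule were chosen with earlier results of these data known. Lists received no test, and a few members that the naming rule gives are not reported here. Gene structures are those of GENCODE vM21, whose coordinates for the 4 genes named with positions or overlaps equal the deposited ones. Alternatives were DESeq2 1.42.0, DESeq2 size factors, no low-count filter, no treatment block, a replicate block, limma 3.58.1 on log2(FPKM + 1) or log2(FPKM + 0.1), and each library left out. The omission of the pairs high in Xist or low in striatal markers and a term for Xist were added after the data were seen.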

Additional observations from a re-analysis of the deposited data

Results flagged for a closer look

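Of 74 groups of 4 libraries examined (1 genotype of 1 named gene each), 3 (4.05%) held a library far from the other 3 of its genotype by Dixon's 95% criterion, and chance gives about 1 in 20. Ngef lay at 40.4 CPM in CAA mock 2, against 67.7 to 70.9 CPM in the other CAA libraries, so that the library furthest from WT was the 1 that stood apart. Jun lay at 66.9 CPM in CAA stress 2, against 51.7 to 53.7 CPM in the other CAA libraries. Ucp2 lay at 24.4 CPM in WT mock 1, against 35.2 to 35.4 CPM in the other WT libraries.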

How the results depend on the processing

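Wdfy1 and Ngef were called under each of the 19 alternatives to the pooled fit, and their log2 fold changes ran from 1.80 (limma on log2(FPKM + 1)) to 2.40 and from -2.35 to -2.04. The count of 2 called genes was also 2 with DESeq2 size factors, with 4 group means, without the treatment block, with a term for Xist and with limma on log2 FPKM at either pseudocount. It was 303 of 29446 without the low-count filter (299 of them among the 17182 genes, with infinite prior degrees of freedom against 7.32), 40 with DESeq2, 3 without the pair high in Xist (Gm28437 added), 3 without the pair lowest in striatal markers (Otp added) and 2 to 4 when 1 library was left out. The 4 arose without CAA stress 2 (C130021I20Rik and Gadd45g added), and the count was 3 without WT mock 2 (Gm10705 added) or WT stress 2 (Ddit4l added). Within mock the count was 82 without the filter, 20 with DESeq2 and 1 to 3 with 1 library left out. Within stress it was 120, 11 and 0 to 2 under the same alternatives, and for the interaction 17, 4 and 0 to 1. The cause of these differences was not tested.

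With the replicate number as a block, 4 genes were called, Nr2f2 (adjusted p = 0.0296) and Neu2 (0.0408) being added. Same-numbered libraries did not deviate together (Pearson r across genes of -0.273 to 0.143 between pairs of groups), so the numbers were not taken as a pairing. The sign of App changed with 1 library left out (-0.037 to 0.095), as did that of Wdfy2 (-0.096 to 0.019). Of the 37 genes followed through the alternatives no other changed sign, 25 that edgeR had not called passed in DESeq2, and 26 passed without the filter. Levels of a few CPM, as for Otp, Neu2, Itgax and the neutrophil genes, rest on few reads, and a p that misses the threshold there does not show that levels were alike.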
